A study of Mus musculus with 6 samples.

Results

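Tumor necrosis factor (TNF) receptors were followed in hippocampal RNA through 8 genes of this superfamily that are expressed in brain, *Tnfrsf25*, *Tnfrsf1a*, *Tnfrsf1b*, *Tnfrsf21*, *Tnfrsf19*, *Tnfrsf12a*, *Ltbr* and *Fas*. They were picked by name among the 55421 genes of the count table, and all 8 of 8 passed the filter on low counts. The set was selected on its expression in these libraries and around *Tnfrsf25*, whose difference between the groups was already known, so the values of the 8 genes are given as a description with no p-value.

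The libraries came from the hippocampi of 6 wild-type male C57BL/6N mice aged 8 to 10 weeks, with 1 stranded mRNA library per mouse. Substance P (SP), a neuropeptide released by sensory nerve endings, was injected under the skin of 3 mice at 10 µM in 100 µL on 14 consecutive days. The other 3 mice received the same volume of saline as vehicle. No allele or transgene separated the groups, and the question was how peripheral SP alters hippocampal gene expression. Whole hippocampus holds many cell types, so fewer cells of a type and less RNA per cell cannot be told apart in these values.

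TNF receptors are membrane proteins that bind trimeric ligands of the TNF superfamily. Receptors with a death domain, such as TNFR1 (*Tnfrsf1a*), Fas, DR3 (*Tnfrsf25*) and DR6 (*Tnfrsf21*), can recruit adaptors that lead to NF-kB activation or to caspase-8 and apoptosis, whereas receptors without one act through TRAF proteins. In the brain this family is known for its part in glial inflammation, synaptic scaling and the control of axon growth and myelination.

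*Tnfrsf25* (ENSMUSG00000024793) lies on chromosome 4 of GRCm38 from 152115934 to 152120119 on the plus strand and has 4 annotated transcripts. The annotation places *Plekhg5* 533 bases upstream on the same strand and *Espn* 211 bases downstream on the opposite strand, and 0 genes overlap *Tnfrsf25*. Because the comparison turns mainly on this gene, the 250 bases before each of its start sites in RefSeq (GRCm38.p6) are printed here 5′ to 3′ on the plus strand, with a match to the NF-kB consensus in capitals. The first window ends at the base before the annotated gene, and the second, at an internal start site, overlaps the end of exon 1.
Tnfrsf25 start site 1, chr4:152115684-152115933: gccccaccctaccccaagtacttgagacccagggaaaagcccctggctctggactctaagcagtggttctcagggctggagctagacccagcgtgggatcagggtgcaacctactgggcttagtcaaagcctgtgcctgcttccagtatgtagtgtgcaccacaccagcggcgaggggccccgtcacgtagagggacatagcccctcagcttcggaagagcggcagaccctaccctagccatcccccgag
Tnfrsf25 start site 2, chr4:152116093-152116342: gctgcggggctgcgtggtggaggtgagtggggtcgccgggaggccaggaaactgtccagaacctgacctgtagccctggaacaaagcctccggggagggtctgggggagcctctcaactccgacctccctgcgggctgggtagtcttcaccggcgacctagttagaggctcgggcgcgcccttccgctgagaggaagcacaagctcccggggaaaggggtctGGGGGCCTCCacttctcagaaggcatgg
Their GC content was 61.6% and 66.4%. The NF-kB consensus was found on either strand in 1 of the 10 windows of the 8 genes, the second window of *Tnfrsf25*, and in 5.0% of 32851 mouse promoter windows of the same length. The GC box (GGGCGG) occurred in 6 of the 10 windows and in 32.7% of all windows. The CCAAT box (CCAAT) and the TATA box (TATAAA) occurred in 0 of the 10 windows, where 33.8% and 12.4% of all windows hold them. Such matches describe letters in these windows and not the binding of a factor.

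The libraries labelled vehicle held 23105888 to 27605937 estimated counts and those labelled SP 22349941 to 24284608. A count of 0 allows up to 0.109 to 0.135 CPM, the counts scaled to the normalized library size by edgeR. This limit equals 3 counts and covers counting error only. Markers of hippocampal neurons summed to 3434 to 3548 CPM under the vehicle label and 3599 to 3888 CPM under the SP label. Library SP 1 stood apart in markers of the choroid plexus, which summed to 172 CPM there and to 2779 to 4685 CPM in the other 5 libraries. With edgeR's quasi-likelihood test and the replicate number as a block, 0 of 16707 tested genes (0%) passed FDR < 0.1 and |log2FC| > 0.3, and the lowest FDR was 0.108. Before adjustment 1705 genes had a p under 0.05, 4.53% of all tested genes in the higher direction and 5.67% in the lower. With DESeq2 and the block, 26 of the 3803 genes given an FDR passed, and without the block 116 of 14621. With limma-voom 2 of 16707 passed. Leaving out replicate 1, 2 or 3 gave 9, 13 or 36 genes. Across all tested genes the 3 libraries of each label were separate in the higher direction for 9.30% and in the lower for 9.08%, shares against which the counts below can be read. The smallest two-sided p that exact permutation of 3 against 3 mice allows, with the replicate block left aside, is 0.1. The p-values measure only the spread between these mice.

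The other 7 genes were protein-coding and lie elsewhere in GRCm38. *Tnfrsf1b* (ENSMUSG00000028599) is also on chromosome 4, from 145213463 to 145246870 on the minus strand. *Tnfrsf1a* (ENSMUSG00000030341) and *Ltbr* (ENSMUSG00000030339) are close together on chromosome 6, from 125349362 to 125362484 on the plus strand and from 125306571 to 125313885 on the minus strand. *Tnfrsf12a* (ENSMUSG00000023905) and *Tnfrsf21* (ENSMUSG00000023915) are on chromosome 17, from 23675445 to 23677468 on the minus strand and from 43016555 to 43089189 on the plus strand. *Tnfrsf19* (ENSMUSG00000060548) is on chromosome 14 from 60963875 to 61046490 on the minus strand, and *Fas* (ENSMUSG00000024778) on chromosome 19 from 34290666 to 34327772 on the plus strand.

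Among the 8 receptor genes, 2 had separate groups, both higher in the libraries labelled SP, where 9.30% of all tested genes were separate. In the lower direction 0 had separate groups, where 9.08% of all tested genes did. Of the 2, *Tnfrsf25* is the gene around which the set was selected. The log2 fold change was positive in 5 genes and negative in 3, with a median of 0.048 against 0.0016 over all tested genes. *Tnfrsf25* had the largest value of the 8, and the other 7 genes lay between -0.19 and 0.22.

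*Tnfrsf25* encodes DR3, a death domain receptor best known on T cells, where its ligand TL1A (*Tnfsf15*) gives a costimulatory signal. It had 247, 254 and 276 counts in the libraries vehicle 1, 2 and 3 and 338, 485 and 287 counts in SP 1, 2 and 3. On the CPM scale these were 10.6, 10.3 and 10.0 against 14.4, 20.1 and 12.9. Every library labelled SP was above every library labelled vehicle, and SP 2 was the highest. The mean was 10.3 ± 0.30 CPM (SD, n = 3 mice) under the vehicle label and 15.8 ± 3.82 CPM (SD, n = 3) under the SP label, so that nearly all the spread was among the mice labelled SP. On the log2 scale the difference was 0.60 (standard error 0.13, 95% interval 0.30 to 0.90), a ratio of 1.51. Without replicate 2, which holds the highest library, it was 0.40, and without replicate 1 or 3 it was 0.67 or 0.71. Because the gene was chosen with this difference known, its interval can lie too far from zero and is a description, not a test.

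**Figure D1:**
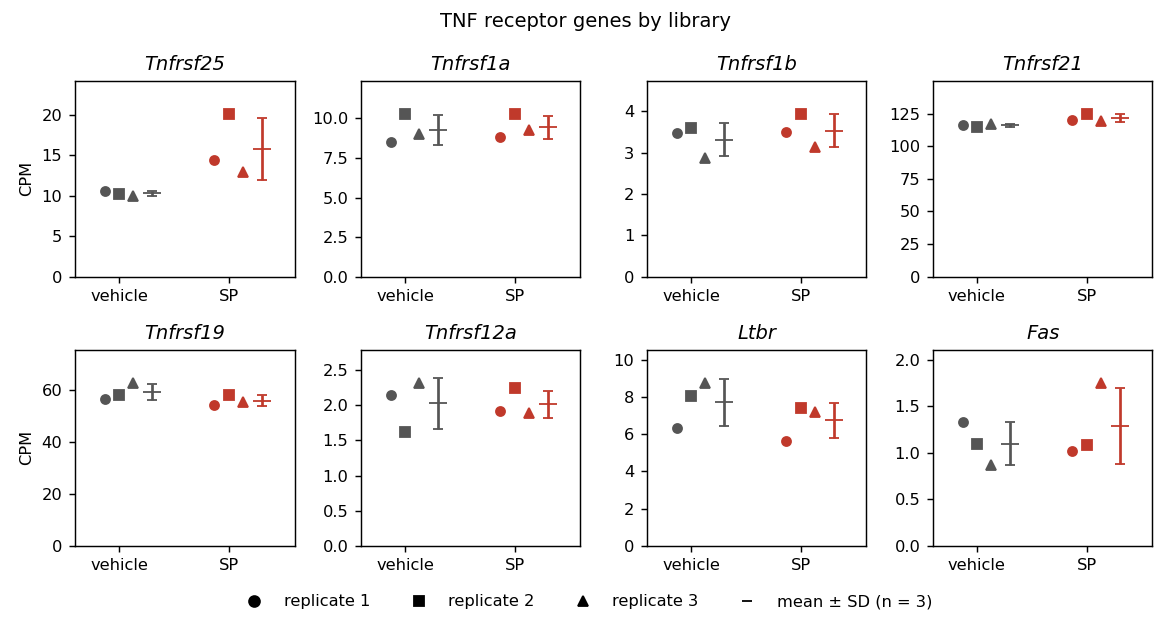
Expression of the 8 TNF receptor genes in CPM (y axis, from 0, scaled separately for each gene) in the libraries labelled vehicle (gray) and SP (red). Symbols mark the replicate number and bars the mean ± SD of 3 mice. In *Tnfrsf25* the libraries labelled SP lie between 12.9 and 20.1 CPM and those labelled vehicle between 10.0 and 10.6 CPM.

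*Tnfrsf21*, the gene of DR6, encodes an orphan death domain receptor linked to axon pruning and to oligodendrocyte maturation. Its values were 116, 115 and 117 CPM for the vehicle label and 120, 125 and 120 CPM for the SP label. The groups were separate, as for *Tnfrsf25*, but by a small margin, with means of 116 ± 1.23 and 122 ± 2.86 CPM (SD, n = 3 each). Their difference on the log2 scale was 0.07 (standard error 0.05, 95% interval -0.05 to 0.19), and without replicate 2 it was 0.040.

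*Tnfrsf1a*, the gene of TNFR1 and the main receptor of soluble TNF, had 8.51, 10.3 and 9.0 CPM under the vehicle label and 8.82, 10.3 and 9.25 CPM under the SP label. The groups overlapped almost fully, and the log2 fold change was 0.03 (95% interval -0.19 to 0.25). *Fas*, whose receptor triggers apoptosis through FADD and caspase-8, had the fewest counts of the 8 genes, 24 to 39 per library. It had 1.33, 1.09 and 0.871 CPM for the vehicle label and 1.02, 1.08 and 1.75 CPM for the SP label. The difference of 0.22 on the log2 scale (95% interval -0.52 to 0.96) rested on SP 3 and was -0.20 without replicate 3.

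Of the receptors without a death domain, *Tnfrsf1b* encodes TNFR2, which responds mainly to membrane-bound TNF. It had 3.48, 3.60 and 2.87 CPM under the vehicle label and 3.49, 3.94 and 3.14 CPM under the SP label, with a log2 fold change of 0.09 (95% interval -0.26 to 0.44). *Tnfrsf19* encodes TROY, a partner of the Nogo receptor and LINGO-1. Its values of 56.8, 58.3 and 63.0 CPM overlapped those of 54.3, 58.3 and 55.6 CPM in the libraries labelled SP, and the log2 fold change was -0.08 (95% interval -0.22 to 0.06). *Ltbr*, the lymphotoxin beta receptor, had 6.32, 8.08 and 8.78 CPM against 5.67, 7.43 and 7.18 CPM. It was lower in the library labelled SP of each replicate number, although the groups overlapped, and the log2 fold change was -0.19 (95% interval -0.45 to 0.07). *Tnfrsf12a* encodes Fn14, the receptor of TWEAK. It had 2.15, 1.62 and 2.32 CPM under the vehicle label and 1.92, 2.24 and 1.89 CPM under the SP label, and its log2 fold change of -0.0025 (95% interval -0.52 to 0.52) was -0.23 without replicate 2 and 0.15 without replicate 3.

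**Figure D2:**
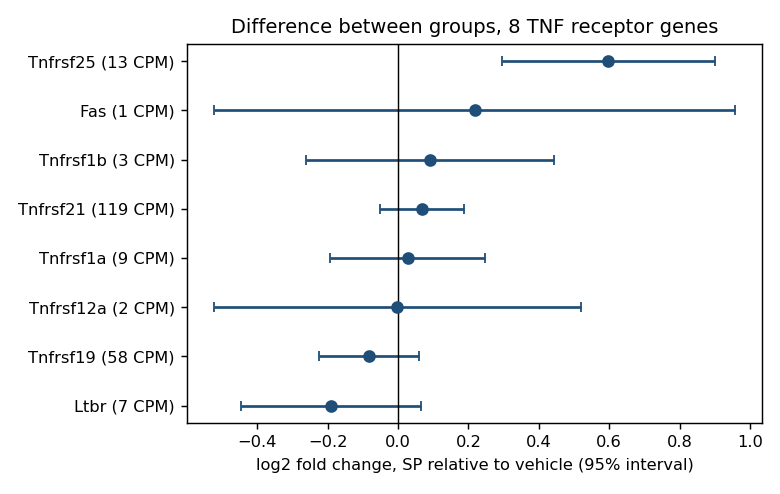
Log2 fold change of the 8 genes, SP label over vehicle label (x axis), with 95% intervals computed from the edgeR test, and the mean CPM over 6 libraries beside each name. *Tnfrsf25*, around which the set was selected, is at 0.60, and the other 7 genes lie between -0.19 and 0.22.

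The intervals of the other 7 genes differed in width with the counts behind them. That of *Tnfrsf21*, with 2664 to 3225 counts per library, was the narrowest, from -0.05 to 0.19, and those of *Fas* and *Tnfrsf12a* were the widest. The interval of *Fas* includes a value of 0.60, so that a difference of that size is not excluded for *Fas*.

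Levels were compared between genes only per length, as TPM, computed from the counts divided by the median length of each gene's annotated transcripts. *Tnfrsf19* and *Tnfrsf21* were highest, with 55.7 ± 3.27 and 53.8 ± 1.53 TPM (SD, n = 6 libraries), and their ranges overlapped. *Ltbr*, *Tnfrsf1a* and *Tnfrsf25* followed with 19.3 ± 3.10, 16.2 ± 1.34 and 13.4 ± 3.95 TPM (SD, n = 6), and each of these ranges overlapped the next. *Tnfrsf12a*, *Tnfrsf1b* and *Fas* were lowest, with 3.11, 1.95 and 1.01 TPM. With the median length the ranges of these 3 genes were separate from each other. The order depended on the length used. With the longest transcript *Tnfrsf21* led with 87.2 TPM, *Tnfrsf19* had 37.9 TPM, and *Tnfrsf25* came next with 20.9 TPM. With all exons of a gene joined, *Tnfrsf25* had 18.7 TPM. The ranges of *Tnfrsf1b* and *Fas* overlapped with the longest transcript (2.00 to 2.83 and 1.43 to 2.79 TPM). They also overlapped with joined exons (2.44 to 3.49 and 1.37 to 2.68 TPM), where *Tnfrsf12a* (2.74 to 3.92 TPM) overlapped *Tnfrsf1b*.

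The neighbours of *Tnfrsf25* were examined next. *Plekhg5* (ENSMUSG00000039713, chromosome 4 from 152072498 to 152115400) had 130, 133 and 131 CPM for the vehicle label and 166, 184 and 138 CPM for the SP label. The groups were separate, and the libraries labelled SP had the same order as in *Tnfrsf25*, with SP 2 highest and SP 3 lowest. Its log2 fold change of 0.30 (standard error 0.0764) had an FDR of 0.350 with edgeR. *Espn* (ENSMUSG00000028943, chromosome 4 from 152120331 to 152152371), an actin-bundling protein, had 2.54, 2.30 and 1.92 CPM against 2.47, 1.70 and 2.51 CPM, a log2 difference of -0.022 with an FDR of 0.981. The ranges of *Espn* overlapped, and SP 2 was its lowest library.

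Markers of oligodendrocytes had the same order as *Tnfrsf25* among the libraries labelled SP but not among those labelled vehicle. Vehicle 3 had the highest marker sum and the lowest *Tnfrsf25* value of its label. The 9 markers summed to 4170, 4181 and 4682 CPM for the vehicle label and 5321, 6855 and 4790 CPM for the SP label, again with SP 2 highest and SP 3 lowest. All 9 of 9 markers had positive log2 fold changes with a median of 0.35. The unadjusted p was under 0.05 for 7 of them, against 4.53% of all tested genes in the higher direction. Of the 9 markers, 0 were called, the lowest FDR being 0.350. Per 1000 CPM of the marker sum, *Tnfrsf25* had 2.55, 2.46 and 2.14 CPM under the vehicle label and 2.71, 2.94 and 2.69 CPM under the SP label. On this scale, chosen after the data had been seen, the groups were still separate, and the log2 ratio of the means was 0.22 in place of 0.60. Per summed markers of hippocampal neurons, astrocytes, microglia and endothelial cells, likewise added after the data had been seen, the ratio was 0.51, 0.59, 0.63 and 0.64. For the single oligodendrocyte markers, Pearson's r with *Tnfrsf25* in log2 CPM over 6 libraries lay between 0.824 (*Ermn*) and 0.982 (*Mag*). Over 4 libraries, without SP 2 and SP 1, r lay between -0.138 (*Ermn*) and 0.826 (*Mag*). The part of oligodendrocyte RNA in the difference of *Tnfrsf25* was not tested beyond these values.

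**Figure D3:**
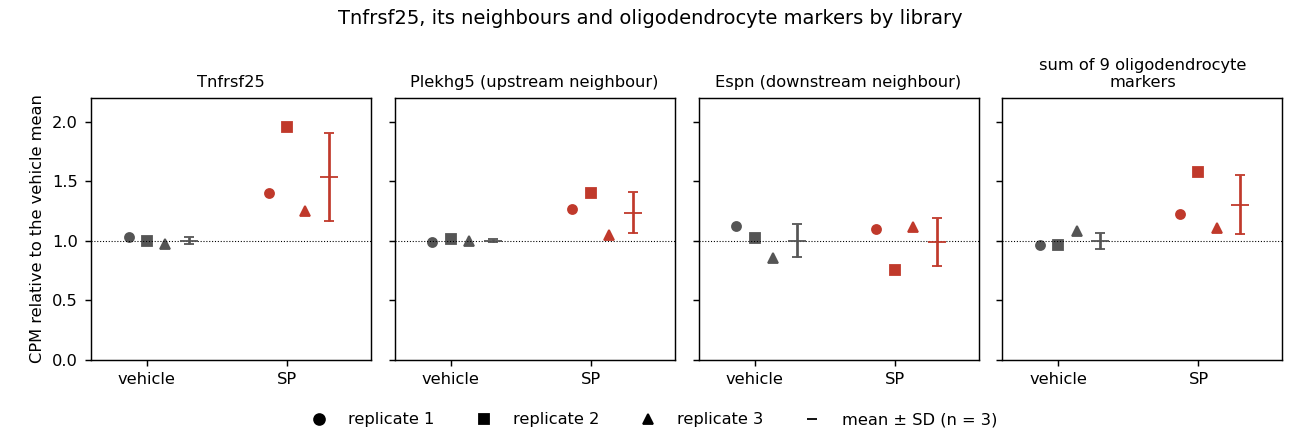
CPM relative to the mean of the libraries labelled vehicle (y axis, from 0) for *Tnfrsf25*, *Plekhg5*, *Espn* and the sum of 9 oligodendrocyte markers, with symbols for the replicate number and bars for the mean ± SD of 3 mice. Library SP 2 is highest in *Tnfrsf25* (1.95), *Plekhg5* (1.40) and the marker sum (1.58), and lowest in *Espn* (0.755).

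Since DR3 is best known on lymphocytes, T cell markers were summed as well. The 8 markers together reached only 1.07 to 1.58 CPM for the vehicle label and 0.664 to 1.02 CPM for the SP label. *Cd3e* had 0 counts in each library labelled SP, and *Cd8a* had at most 1 count in any of the 6. *Trac*, the 1 marker of the 8 that was tested, had 10, 19 and 8 counts for the vehicle label and 12, 10 and 16 for the SP label. Its log2 fold change was 0.17 with an FDR of 0.925. *Cd4* had 5, 11 and 7 against 5, 3 and 2 counts, and *Trbc2* 5, 7 and 14 against 5, 2 and 1. Microglia markers summed to 364 to 380 CPM and 356 to 371 CPM under the vehicle and SP labels, and astrocyte markers to 1838 to 1890 CPM and 1812 to 1963 CPM.

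The genes whose log2 CPM followed *Tnfrsf25* most closely over the 6 libraries, among 16706 other tested genes, were *Lgi3*, *Nck2*, *Lrrc10b*, *Fth1* and *Fasn*, with Pearson's r of 0.999, 0.999, 0.998, 0.997 and 0.996. *Fth1* encodes ferritin heavy chain and *Fasn* fatty acid synthase. These values are a description, since the 6 points share the group labels and 590 genes (3.53%) had r over 0.9. Without SP 2 and SP 1, the libraries farthest from the median of *Tnfrsf25*, r was 0.991, 0.993, 0.992, 0.979 and 0.971 over the other 4 libraries.

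The pathway around the receptors was described by 7 lists with 115 genes, of which 81 were tested. No gene of these lists was called with edgeR (0 of 81), and 9 had an unadjusted p under 0.05, 5 higher and 4 lower. Over all tested genes the shares at that p were 4.53% higher and 5.67% lower. Of the 18 ligands, 5 passed the filter, 8 had at most 3 counts in every library, and *Tnfsf4*, *Cd40lg* and *Tnfsf18* had 0 counts in all 6. *Tnfsf15*, the ligand of DR3, had 1 count in vehicle 2 and 0 in the other 5 libraries. *Tnf* itself had at most 2 counts in any library, and *Fasl*, *Lta* and *Ltb* had at most 4, 4 and 10.

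Among the 5 tested ligands *Tnfsf12*, which encodes TWEAK, had 6.96 ± 0.722 CPM under the vehicle label and 6.70 ± 1.06 CPM under the SP label (SD, n = 3 each), a log2 difference of -0.06 with an FDR of 0.924. *Tnfsf10*, which encodes TRAIL, had 3.18, 3.23 and 3.12 CPM against 1.83, 2.16 and 3.10 CPM. These groups were separate, with SP 3 next to the vehicle range, and the log2 fold change of -0.45 had an FDR of 0.513. *Tnfsf13b*, *Eda* and *Tnfsf13* had -0.18, 0.06 and 0.17.

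Of 20 other receptors of the family, 13 were tested, 3 with positive and 10 with negative log2 fold changes and a median of -0.18. *Tnfrsf11a*, which encodes RANK, had 2.62, 2.51 and 2.50 CPM for the vehicle label and 1.96, 2.03 and 1.21 CPM for the SP label, separate groups whose log2 difference of -0.57 had an FDR of 0.444. *Tnfrsf9* and *Cd40* had -0.44 and 0.16, and *Tnfrsf8* had 0.19. *Ngfr*, the p75 neurotrophin receptor, had a log2 difference of -0.13 (FDR 0.860) with overlapping groups.

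The adaptors and other proteins of the receptor complex were nearly all expressed, with 28 of 30 tested and a median log2 fold change of 0.020. *Tradd*, the death domain adaptor that TNFR1 and DR3 share, had 3.92 ± 0.193 and 4.27 ± 0.0746 CPM under the vehicle and SP labels (SD, n = 3 each), a log2 fold change of 0.12 with separate groups and an FDR of 0.813. *Ripk1*, *Traf2*, *Casp8* and *Tnfaip3* had log2 fold changes of 0.13, 0.13, 0.20 and 0.13, with FDRs from 0.733 to 0.784. The lowest values were -0.36 for *Fadd* (FDR 0.619) and -0.32 for *Birc3*, and the highest were 0.34 for *Traf1* and 0.28 for *Map3k14*. The unadjusted p was under 0.05 for *Traf3* (0.16, FDR 0.409) and *Xiap* (-0.13, FDR 0.468), genes singled out after their values were seen.

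Downstream, 11 of 12 kinases and subunits of NF-kB were tested, with a median of 0.039. *Relb*, a subunit of the alternative NF-kB pathway, had 6.19, 6.43 and 6.39 CPM under the vehicle label and 7.76, 7.89 and 9.34 CPM under the SP label. All libraries labelled SP were above those labelled vehicle, with a log2 fold change of 0.39 (standard error 0.114) and an edgeR FDR of 0.385. *Nfkbia*, the inhibitor induced by NF-kB, had 0.22 (FDR 0.601) with SP 3 as its highest library, while *Ikbkg* and *Rel* had -0.09 and -0.08. Of 22 response genes 11 were tested, with a median of 0.089. *Il6*, *Ccl2*, *Ccl5*, *Ccl7*, *Cxcl2*, *Sele* and *Bcl2a1d* had at most 3 counts in every library. *Vcam1*, an adhesion molecule of activated endothelium, had 41.2, 39.0 and 40.1 CPM against 28, 27.8 and 39.3 CPM, a log2 difference of -0.36 with an FDR of 0.389, and SP 3 lay within the range of the vehicle label. *Ier3*, *Gadd45b* and *Mmp9* had -0.27, 0.23 and 0.31.

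The list of the Nogo receptor complex, in which TROY can take part, and its ligands was tested in all 8 genes, with a median of 0.072. Groups were separate in 4 genes of this list, *App* among them, all in the higher direction, where 9.30% of all tested genes were separate. *Rtn4rl2*, a homolog of the Nogo receptor, had 24.1, 23.6 and 22.1 CPM for the vehicle label and 32.9, 27.4 and 27.6 CPM under the SP label, a log2 difference of 0.33 (standard error 0.0736) with an FDR of 0.324. *Rtn4rl1*, *Rtn4r* and *Lingo1* had 0.16, 0.16 and 0.10, with FDRs of 0.425, 0.479 and 0.545, and *Omg* and *Lingo2* had -0.006 and -0.09. *App*, whose product is a proposed ligand of DR6, had 0.046 and an FDR of 0.849.

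The enzymes that release TNF and its receptors from the membrane, and the regulators of these enzymes, had negative values in 5 of 5 genes, with a median of -0.044. *Timp3*, an inhibitor of these proteases, had 118, 118 and 136 CPM under the vehicle label and 91.6, 96.7 and 113 CPM under the SP label. Its groups were separate, with a log2 fold change of -0.30 (standard error 0.0513) and an edgeR FDR of 0.319. *Adam17*, the main TNF-releasing protease, had -0.03 (standard error 0.084). *Rhbdf1* and *Rhbdf2*, which are needed for the maturation of *Adam17*, had -0.06 and -0.04 (standard errors 0.094 and 0.217). *Adam10* had -0.044 (standard error 0.054). Each of these values was closer to zero than its standard error is wide.

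**Figure D4:**
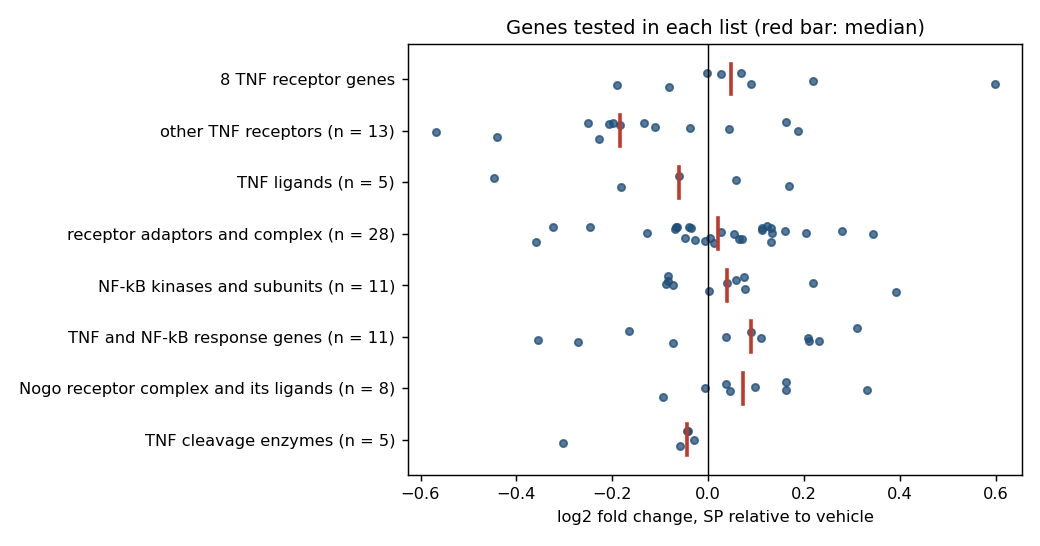
Log2 fold change, SP label over vehicle label (x axis), of each tested gene (points) in the 8 receptor genes and in 7 pathway lists, with the median of each list as a red bar. Medians lie between -0.18 and 0.089, and *Tnfrsf25* is the point farthest to the right at 0.60.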

How the data were processed

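RNA-seq libraries of hippocampus from 3 mice injected with SP and 3 with vehicle were analysed, grouped by the treatment in the labels. Per the study's methods and the submitters' processing notes, the authors trimmed the reads with Trim Galore, aligned them to GRCm38 with STAR and quantified them with Salmon (versions not given in the sources used here). They deposited estimated counts per gene, not scaled for library size or gene length. Salmon divides shared reads, so 9.77% of the values were not whole, and counts were rounded.

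Tests used edgeR 4.0.16 in R 4.3.3. The function filterByExpr kept genes by group with a minimum count of 10 and a minimum total count of 15, libraries were scaled by TMM (factors 0.993 to 1.01), and the quasi-likelihood test was fitted with the replicate number as a block. The labels call this number a batch, and the study adjusted for replicates. The deviations of mice with the same number correlated across genes with r of 0.0139, -0.0690 and 0.0514. Benjamini-Hochberg adjustment ran over all 16707 tested genes, and a gene was called at FDR < 0.1 with |log2FC| > 0.3. CPM came from edgeR. Alternatives used DESeq2 1.42.0, limma-voom in limma 3.58.1, other filters and normalizations, and each replicate left out.

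The 8 genes, the lists and the tests were chosen with earlier results of these data known. Genes named were the 8 members, any called pathway gene, the 2 highest and 2 lowest of each pathway list, 16 pathway genes fixed by name, the nearest neighbours of *Tnfrsf25* and the 5 genes most correlated with it, and genes named outside this rule were singled out by their values or counts. Positions and transcript lengths came from GENCODE M21 on GRCm38 (55240 of 55421 identifiers matched). Promoter windows came from RefSeq, matched by symbol for 8 of 8 genes.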

Additional observations from a re-analysis of the deposited data

How the results depend on the processing

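The number of genes called over all tested genes, 0, was 2 without the replicate block, 384 with no filter on low counts (118 higher, 266 lower), 26 with DESeq2 and the block (10 higher, 16 lower), 116 with DESeq2 and no block (47 higher, 69 lower) and 2 with limma-voom. It was 9 to 36 without replicate 1, 2 or 3, and 5 with filterByExpr set by the whole design, an alternative chosen after seeing the data. Of the 8 receptor genes, 1, *Tnfrsf25*, was called with no filter and with DESeq2 without the block. Over all genes these settings called 384 of 28039 tested genes and 116 of 14621 genes with an FDR. The set was selected around the difference of *Tnfrsf25*, so its calls are no independent support for that difference. DESeq2 with the block gave an FDR to 1 of the 8 genes, *Tnfrsf21*, and to 16 pathway genes. Over all genes that setting called 26 of the 3803 genes with an FDR. Without the block 73 pathway genes had an FDR. Of the pathway genes, 3 were called with no filter (*Rtn4rl2*, *Timp3* and *Vcam1*) and 1, *Timp3*, with DESeq2 with and without the block. The causes were not tested.

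The log2 fold change of *Tnfrsf25*, 0.60, was 0.62 without the replicate block, 0.40 to 0.71 without replicate 1, 2 or 3, and 0.22 per summed oligodendrocyte markers. It was positive under all 17 alternatives run. These alternatives reuse the same libraries, whose groups were separate in this gene, so the shared sign is no independent support. The level of *Tnfrsf25*, 13.4 TPM, was 20.9 TPM with the longest transcript and 18.7 TPM with joined exons. The log2 fold change of *Fas* was positive under 11 of 12 alternatives and that of *Tnfrsf12a* negative under 10 of 12, while the other 5 genes had the same sign under all 12 run. Leaving out a replicate removed both mice of that number, since a lone mouse adds nothing in the blocked fit. The replicate block changed no call among the 8 genes or the pathway lists with edgeR. *Fas* and *Tnfrsf12a* had the fewest counts of the 8 genes, 24 to 64 per library, and the largest standard errors, 0.32 and 0.22.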

Other observations

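Markers of other cells that a hippocampal dissection can hold are given as summed CPM. Those of leptomeningeal fibroblasts summed to 139 to 149 CPM under the vehicle label and to 141, 82.2 and 122 CPM in SP 1, 2 and 3. The single markers differed. *Dcn* had 24.9 CPM in SP 2 and 70.3 to 86.6 CPM in every other library, and *Col3a1* and *Slc6a13* were also lowest in SP 2. *Lum* was highest in SP 2, with 9.67 CPM, and *Col1a1* and *Col1a2* were lowest in SP 3. Endothelial markers summed to 179 to 189 CPM under the vehicle label and 175 to 184 CPM under the SP label. Of these 6 markers, 2 had positive and 4 negative log2 fold changes, from 0.18 for *Cldn5* to -0.23 for *Slco1a4* (edgeR FDR 0.495 and 0.385). Groups were separate only in *Slco1a4*, in the lower direction, where 9.08% of all tested genes were separate. Neutrophil markers summed to 0.0363 to 0.485 CPM and 0.249 to 0.639 CPM, and *Ly6g* had 0 counts in all 6 libraries.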
